A study of Mus musculus with 36 samples.

Results

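The 12 libraries described here are the PBS controls of a study that also gave C57BL/6 mice DMOG or roxadustat, with 36 libraries in all. They were chosen by their treatment label, PBS. Of these, 6 are labelled retina and hold a liver transcriptome, and 6 are labelled liver and hold a retina transcriptome. DMOG and roxadustat inhibit the prolyl hydroxylases that mark hypoxia-inducible factors for destruction, and the libraries of mice given them are not used here. All 12 libraries were made from total RNA after removal of ribosomal RNA. Strain is the only genotype the labels give, and they hold no age, dose, time or route and nothing on pooling or on how many animals the replicates stand for. How much of the spread between libraries is technical is therefore not known. Xist and Y-linked genes, given below, differ between the libraries of each tissue, so these do not all hold RNA of the same animal or pool. Groups are named below by the transcriptome they hold, the liver transcriptome (labelled retina) and the retina transcriptome (labelled liver).

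The liver makes most plasma proteins, detoxifies foreign compounds, makes bile acids and urea, and keeps blood glucose steady between meals. In the fetus it also makes blood cells. The retina is nervous tissue in which rods and cones turn light into a change of membrane voltage, bipolar cells pass the signal on, amacrine and horizontal cells shape it, ganglion cells send it to the brain, and Mueller glia support them all. Light closes the channels of a photoreceptor through transducin and a phosphodiesterase, and arrestin ends the response.

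The tissue labels go against the transcripts in all 12 libraries. Apoa1, which encodes the main protein of high-density lipoprotein, had 18902 to 27294 rescaled FPKM (median 20692) in the liver transcriptome, against 0.172 to 0.782 (median 0.401) in the retina transcriptome. Sag, the gene of rod arrestin, had 0.198 to 1.01 (median 0.593) in the liver transcriptome, against 4185 to 5268 (median 4323) in the retina transcriptome. FPKM are fragments scaled for transcript length and library size, and rescaled FPKM are these values after each library was brought to a total of 1000000 over the genes it lists, so that levels can be set side by side within and between libraries. The libraries summed to 448552 to 498703 FPKM in liver and 542785 to 617853 FPKM in retina before rescaling, with 16141 to 16329 and 16991 to 17424 genes above 0. Read depth is unknown, since the files hold no counts. Between libraries of one tissue, Pearson correlations of log2 levels across genes were 0.985 to 0.994 in liver and 0.976 to 0.993 in retina, against 0.274 to 0.315 across tissues. Xist lay above the sum of 4 Y-linked genes in 3 liver libraries and 3 retina libraries, and the same replicate number fell on the same side in both tissues for only 2 of 6 numbers.

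Several libraries stood apart in ways that touch the results. Lens genes summed to 3.95 to 6.40 rescaled FPKM in the liver transcriptome, against 62872, 90211, 8289, 10400, 16955 and 50602 in retina replicates 1 to 6, a 10.9-fold range in retina. Retina replicates 1, 2 and 6 were high and 3, 4 and 5 low, and counts are also given below with lens genes left out of the totals. Retina replicate 1 had 2707 rescaled FPKM summed over 14 ganglion cell genes, against 1303 to 1778 in the other 5 retina libraries. Liver replicate 1 had 1584 rescaled FPKM over 5 Kupffer cell genes, genes of the resident macrophages of the liver, against 713 to 1112 in the other 5 liver libraries. The RNA parts of RNase P and RNase MRP took a large share in both tissues. Rpph1 held 2.86% to 3.91% of the liver libraries and 8.16% to 12.6% of the retina libraries, and Rmrp held 1.69% to 2.16% and 3.93% to 5.22%.

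The comparison asked which genes differed between the control transcriptomes and which were at a like level. Tissue and table coincide and each table was scaled on its own, so that a tissue difference and a table difference cannot be told apart. For that reason no p-value is given across tables. A gene is called higher in a tissue when its mean log2 ratio on log2(rescaled FPKM + 0.5) is at least 1, a 2-fold difference, and all 6 libraries of that tissue lie above all 6 of the other. Every log2 ratio is liver over retina, given ± its standard error (SE) over 6 and 6 libraries, and every mean is given ± its standard deviation (SD) over 6 libraries.

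Of 22533 genes joined by symbol, 14619 passed a filter of a mean of at least 1 over the 12 libraries. Of these, 3153 were higher in the liver transcriptome (21.6% of the genes that passed) and 6305 in the retina transcriptome (43.1%). The remaining 5161 were called in neither direction, and 59 of them were 2-fold apart with overlapping libraries. The median log2 ratio over all genes that passed was -0.74. The most abundant 180 to 228 genes held 50% of a liver library, and 275 to 435 genes held 50% of a retina library. Scaling by the median ratio instead moved that median to -0.07 and the counts to 4200 genes higher in liver and 4050 higher in retina, so the split between the tissues depends on the scaling, and list medians below are read against -0.74. No gene called in one direction was called in the other under any scaling tried.

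**Figure D1:**
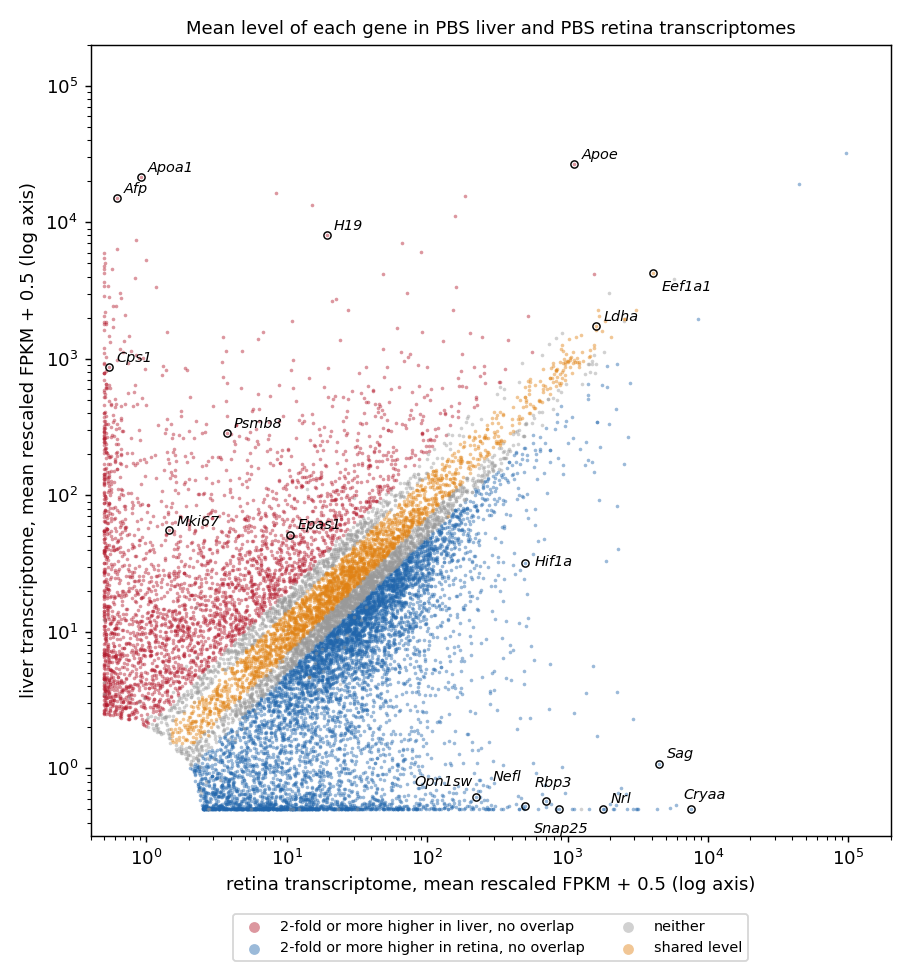
Mean level of each of the 14619 genes that passed the filter, with the liver transcriptome on the vertical axis and the retina transcriptome on the horizontal axis, both as rescaled FPKM plus 0.5 on log axes. Red marks the 3153 genes called higher in liver, blue the 6305 called higher in retina, orange the 2553 at a shared level and grey the rest. Dots along the left and lower edges are genes near 0 in one tissue.

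A gene is called restricted to a tissue when it is called there with a log2 ratio of at least 5 (32-fold) and a mean under 1 in the other tissue. This held for 478 genes in liver (3.27%) and 584 in retina (3.99%). The order turned with scaling by the median ratio, to 569 in liver and 470 in retina, and the counts were 387 and 386 with a pseudocount of 1. The restricted liver genes held 22.6% to 24.7% of the liver libraries, and the restricted retina genes 9.12% to 17.1% of the retina libraries. Without lens genes and crystallins, 568 restricted retina genes were left and held 7.32% to 9.23%. More of the liver genes were abundant: 240 restricted liver genes had a mean of at least 100, against 158 restricted retina genes, or 143 without lens genes and crystallins. In the other tissue, 96 of the 478 and 112 of the 584 were listed at 0 in every library. For such genes no fold is given, and a ratio of any gene near 0 depends on the added 0.5. List medians below that rest on such genes depend on it too.

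Most of the 12 most abundant genes called higher in liver encode secreted proteins. Apoe, which encodes a lipoprotein that cells take up through the LDL receptor family, had 20478 to 34394 rescaled FPKM (median 25707) in liver and 879 to 1414 (median 1095) in retina, a log2 ratio of 4.58 ± 0.16. Apoa2 and Apoc1, which encode smaller apolipoproteins, averaged 16445 ± 1682 and 13461 ± 1323 in liver, and 7.92 ± 1.24 and 14.7 ± 2.01 in retina (SD, n = 6 each). Hpx and Hp encode hemopexin and haptoglobin, which bind free haem and haemoglobin in plasma. Hpx averaged 7461 ± 706 in liver and 0.343 ± 0.0814 in retina, and Hp 6346 ± 286 and 0.115 ± 0.0511. Sepp1, which encodes the selenium carrier of plasma, averaged 7086 ± 450 in liver and 65.5 ± 17.7 in retina. Igfbp2, which encodes a binding protein of insulin-like growth factors, averaged 6007 ± 1217 in liver and 89.2 ± 27.7 in retina. The liver libraries lay above the retina libraries for each of these genes, which the rule for a call requires and is no further result.

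Across the list of 29 plasma protein genes, 27 passed the filter, 26 were higher in liver and 23 were restricted to it, with a median log2 ratio of 11.85. Fgb, the beta chain gene of fibrinogen, averaged 4818 ± 840 in liver, and Kng1, the kininogen gene, 4540 ± 557; both were listed at 0 in all 6 retina libraries. Alb, Ahsg and Trf, whose products albumin, fetuin-A and transferrin are abundant in plasma, were listed at 0 in all 6 liver libraries. Alb and Ahsg fell under the filter. Trf, at 0 in liver, had 30.0 to 110 (median 60.8) in retina, so its call toward retina rests on zeros in the liver table, and a zero in these tables can stand for a failed estimate. Of 15 apolipoprotein genes that passed, 14 were higher in liver and 1, Apod, in retina at a low level, 0.0194 ± 0.0213 in liver and 2.06 ± 0.715 in retina. The call of Apod was lost with scaling by the median ratio, where the filter was applied again. Its log2 ratio was still -1.94 there, in place of -2.26. Of 29 Serpin genes, which encode protease inhibitors, 23 were higher in liver and 3 in retina, led in liver by Serpina1b at 5920 ± 440 and in retina by Serpini1, the neuroserpin gene, at 0.568 ± 0.173 in liver and 61.6 ± 12.3 in retina. The Serpina1 genes are near-identical copies, so the level of a single one is uncertain.

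All 16 complement genes were higher in liver, with a median log2 ratio of 8.39. C3, the central complement component, had 5108 to 5777 rescaled FPKM (median 5267) in liver and 0.328 to 0.691 (median 0.466) in retina. Cfb, which encodes factor B of the alternative pathway, averaged 1480 ± 69.4 in liver and 0.253 ± 0.0886 in retina. Summed over the 16 genes, liver libraries held 10839 to 11505 rescaled FPKM and retina libraries 8.56 to 21.4.

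All 15 genes of transcription factors that set hepatocyte identity were higher in liver (median log2 ratio 5.78) and 8 were restricted to it. Hnf4a, a nuclear receptor that controls much of the hepatocyte programme, had 177 to 188 (median 183) in liver and 0.0162 to 0.181 (median 0.0914) in retina. Cebpa averaged 205 ± 27.0 in liver and 1.57 ± 0.118 in retina, and Creb3l3, which drives genes of fasting and fat handling, 203 ± 23.1 and 0.290 ± 0.0983. Foxa2 averaged 27.0 ± 2.24 in liver and was listed at 0 in retina. All 15 together held 1026 to 1286 rescaled FPKM in liver, against 117294 to 136241 for the plasma protein genes.

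The promoter of Apoh, an abundant restricted liver gene that encodes a phospholipid-binding plasma protein, is shown for the letters TGTTTAC, part of the sequence that FOXA proteins bind. It runs from 250 bases before to 50 after the annotated start and is from RefSeq, GRCm38.p6, on the plus strand at chr11:108395047-108395346, with the matching letters in capitals. The first letter of the match lies at -71, counted from the start.
Apoh: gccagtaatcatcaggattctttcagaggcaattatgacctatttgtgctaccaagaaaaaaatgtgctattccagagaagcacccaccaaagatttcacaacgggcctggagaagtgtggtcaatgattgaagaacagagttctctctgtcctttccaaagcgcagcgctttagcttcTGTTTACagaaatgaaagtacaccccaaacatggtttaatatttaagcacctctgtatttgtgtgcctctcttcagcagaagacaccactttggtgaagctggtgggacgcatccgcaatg
Both strands were searched, with TGTTTAC and its reverse complement GTAAACA, and 3.55% of all 27025 promoters in the table hold it. Apoh averaged 3905 ± 254 in liver and 0.330 ± 0.0993 in retina. Shares among the restricted genes are not given, since 366 of 478 liver genes (76.6%) and 456 of 584 retina genes (78.1%) matched a promoter by symbol, under 80%, which makes that check void. Fabp1, which encodes the fatty acid binding protein of liver, averaged 5508 ± 555 in liver and was listed at 0 in retina. A match of letters is a description and does not show that a factor binds there.

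Genes of nitrogen disposal were higher in liver. All 6 urea cycle genes were higher in liver (median log2 ratio 7.55), and liver libraries held 1977 to 3112 rescaled FPKM over them, against 99.5 to 133 in retina. Cps1, which makes carbamoyl phosphate for the cycle, had 539 to 1015 (median 936) in liver and 0 to 0.102 (median 0.0226) in retina. Ass1, which joins citrulline and aspartate, had 597 to 1103 (median 1034) in liver and 51.4 to 93.8 (median 63.6) in retina. Liver replicate 3 was lowest for both genes, with 539 and 597. Of 12 amino acid degradation genes, 11 were higher in liver, such as Hpd of tyrosine breakdown, at 910 ± 106 in liver and listed at 0 in retina. Prodh of proline breakdown was higher in retina, at 2.44 ± 0.395 in liver and 6.82 ± 1.06 in retina, but was called in neither direction with scaling by the median ratio.

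Of 12 genes of bile acid synthesis and transport, 11 were higher in liver (median log2 ratio 7.26). Slco1b2, an uptake carrier for bile acids and drugs, averaged 551 ± 47.7 in liver and 0.00407 ± 0.00998 in retina. Cyp7a1, the rate-limiting enzyme of the main pathway, varied 17.0 to 75.1 (median 35.1) between liver libraries and was at most 0.0185 in retina. Cyp7b1, of the alternative pathway, ran the other way, with 2.37 ± 0.642 in liver and 8.49 ± 1.14 in retina. All 16 drug metabolism genes were higher in liver (median log2 ratio 8.21). Cyp2e1, which oxidises ethanol and small solvents, had 2291 to 3477 (median 2666) in liver and 0.128 to 0.206 (median 0.138) in retina. Across all 64 cytochrome P450 genes that passed, 51 were higher in liver and 6 in retina. The retina ones included Cyp46a1, the neuronal cholesterol hydroxylase, at 0.0508 ± 0.0661 in liver and 13.3 ± 1.42 in retina.

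**Figure D2:**
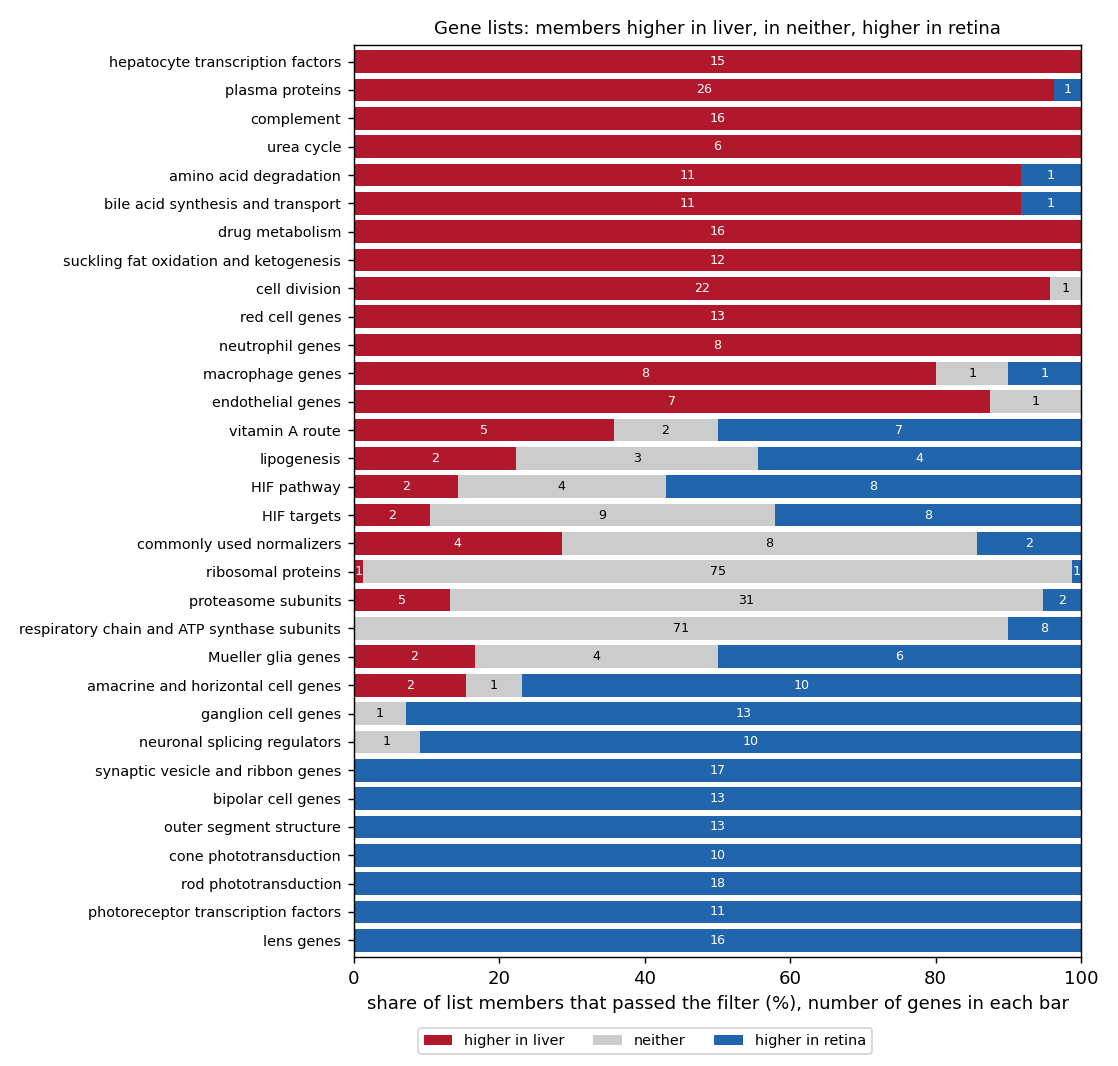
Gene lists down the page, with the share of members that passed the filter called higher in liver (red), in neither (grey) and higher in retina (blue), and the number of genes in each bar. Liver lists at the top are nearly all red, photoreceptor, bipolar and synaptic lists at the bottom all blue, and ribosomal, proteasome and respiratory chain lists mostly grey.

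Many of the abundant genes restricted to retina were those of rods and of the lens. All 11 photoreceptor transcription factor genes were higher in retina (median log2 ratio -7.96) and 7 were restricted to it; 2 of them, Rxrg and Thrb, were called in neither direction with scaling by the median ratio. Nrl, which commits a photoreceptor to the rod fate, had 0 to 0.0445 (median 0) in liver and 1370 to 2090 (median 1801) in retina. Nr2e3, which represses cone genes in rods, and Crx, the homeobox factor of both photoreceptor types, were listed at 0 in all 6 liver libraries and averaged 1415 ± 193 and 1109 ± 132 in retina. The 11 genes summed to 26.5 to 29.2 rescaled FPKM in liver and 4237 to 6384 in retina.

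The promoters of the 3 most abundant restricted retina genes that hold them are shown for the letters TAATCC, a core of the sequence that CRX binds, again from RefSeq, GRCm38.p6, and with the match on either strand in capitals. Sag is on the plus strand at chr1:87803430-87803729, Crygs on the minus strand at chr16:22811361-22811660 and Gngt1 on the plus strand at chr6:3993758-3994057. The match begins at -87 in Sag, -131 in Crygs and -44 in Gngt1.
Sag: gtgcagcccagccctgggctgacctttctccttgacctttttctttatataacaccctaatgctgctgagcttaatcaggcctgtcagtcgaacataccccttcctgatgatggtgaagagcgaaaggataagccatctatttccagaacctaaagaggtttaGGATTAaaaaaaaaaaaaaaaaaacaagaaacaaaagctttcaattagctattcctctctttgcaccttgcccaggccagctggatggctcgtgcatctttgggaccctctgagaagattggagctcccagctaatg
Crygs: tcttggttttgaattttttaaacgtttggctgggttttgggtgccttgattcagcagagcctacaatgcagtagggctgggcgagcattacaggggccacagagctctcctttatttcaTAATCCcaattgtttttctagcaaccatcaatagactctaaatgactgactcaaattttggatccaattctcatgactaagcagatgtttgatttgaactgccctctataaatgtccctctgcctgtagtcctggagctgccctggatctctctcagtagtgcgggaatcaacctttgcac
Gngt1: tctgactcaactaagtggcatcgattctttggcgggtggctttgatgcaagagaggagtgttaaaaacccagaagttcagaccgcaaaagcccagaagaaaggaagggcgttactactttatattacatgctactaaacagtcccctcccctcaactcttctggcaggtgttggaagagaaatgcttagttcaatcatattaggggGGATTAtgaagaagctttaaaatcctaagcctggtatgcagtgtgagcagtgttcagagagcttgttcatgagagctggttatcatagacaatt
In Sag and Gngt1 the capitals read GGATTA, the reverse complement, and in Crygs TAATCC. These letters, on either strand, occur in 7.16% of all promoters in the table. Crygs encodes a lens crystallin, not a photoreceptor protein, and was among the 3 by its level alone.

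All 18 rod phototransduction genes that passed were higher in retina (median log2 ratio -8.74), and together they held 83.3 to 95.1 rescaled FPKM in liver and 21362 to 33403 in retina. Pdc, the phosducin gene, was listed at 0 in liver and averaged 4344 ± 611 in retina. Gngt1, the gamma subunit gene of rod transducin, averaged 0.222 ± 0.133 in liver and 2422 ± 306 in retina, and Pde6g, the inhibitory subunit gene of the phosphodiesterase, 0.163 ± 0.122 and 2296 ± 308. Gnat1, the alpha subunit gene of rod transducin, had 2.43 to 3.60 in liver and 788 to 2192 in retina. Its retina values fell apart, with 2158 and 2192 in replicates 2 and 3 and 788 to 1123 in the other 4. Of the 19 genes listed, Cngb1 fell under the filter.

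Cone genes were lower in level than rod genes. All 10 were higher in retina (median log2 ratio -6.03), and they summed to 52.3 to 67.6 rescaled FPKM in liver and 1269 to 1718 in retina. Pde6h and Gnb3, subunit genes of cone phosphodiesterase and cone transducin, averaged 0.0287 ± 0.0702 and 0.0255 ± 0.0299 in liver and 383 ± 43.2 and 372 ± 44.4 in retina. Pde6c had 21.8 ± 4.04 in liver and 66.8 ± 12.1 in retina, and its call was lost with scaling by the median ratio. All 13 genes of outer segment structure were higher in retina (median log2 ratio -9.27). Rom1 and Prph2, which shape the rims of the discs, averaged 3.15 ± 0.508 and 0.00455 ± 0.0112 in liver, and 2257 ± 289 and 2141 ± 346 in retina.

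All 13 bipolar cell genes were higher in retina (median log2 ratio -6.44) and 11 were restricted to it. Pcp2, a marker of rod bipolar cells, was listed at 0 in liver and averaged 347 ± 33.8 in retina. Trpm1, the channel that opens when light falls on ON bipolar cells, averaged 0.242 ± 0.141 in liver and 63.4 ± 8.41 in retina. Of 13 amacrine and horizontal cell genes that passed, 2 were higher in liver, 10 in retina and 1 in neither. Calb2, the calretinin gene and the highest of them in retina, had at most 0.0514 in liver and 338 to 833 (median 400) in retina. Onecut1 and Onecut2, horizontal cell factors that hepatocytes also use, were the 2 higher in liver, at 16.5 ± 4.56 and 18.6 ± 2.41, with 2.12 ± 0.526 and 1.15 ± 0.181 in retina. Prox1, shared by both tissues, had 48.8 ± 5.78 in liver and 58.0 ± 8.62 in retina.

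Of 14 ganglion cell genes, 13 were higher in retina (median log2 ratio -5.89). Nefl, the light neurofilament gene, had 0 to 0.122 (median 0) in liver and 346 to 869 (median 404) in retina. Pou4f1, a ganglion cell transcription factor, had 36.8 in retina replicate 1 and 15.2 to 21.2 in the other 5 retina libraries, and Slc17a6, which loads glutamate into vesicles, 91.2 and 29.7 to 46.2. The same library was highest for the vessel genes Cldn5, at 64.7 against 25.3 to 36.2, and Pecam1, at 9.84 against 3.55 to 5.87, and for the pericyte gene Rgs5, at 106.5 against 37.3 to 58.9. Every ganglion cell gene called higher in retina was also called without that library.

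Of 12 Mueller glia genes, 2 were higher in liver (Apoe and Clu), 6 in retina and 4 in neither. Over all genes that passed, 21.6% were higher in liver and 43.1% in retina, so these counts are near the shares of all genes and are no result about the list. Rlbp1, which carries 11-cis retinoids, averaged 0.0282 ± 0.0247 in liver and 305 ± 35.2 in retina, and Slc1a3, the glial glutamate carrier, 0.769 ± 0.426 and 167 ± 13.3. Glul, which makes glutamine in Mueller glia and in pericentral hepatocytes, was at a shared level, 438 ± 62.8 in liver and 575 ± 188 in retina. With scaling by the median ratio, 3 of the 6 retina calls of this list were lost, those of Car2, Car14 and Vim.

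All 17 synaptic vesicle and ribbon genes were higher in retina (median log2 ratio -6.13). Snap25, of the membrane fusion complex, was listed at 0 in liver and averaged 866 ± 104 in retina, and Slc17a7, the main vesicular glutamate carrier, averaged 0.00505 ± 0.0124 in liver and 618 ± 157 in retina. Of 65 potassium channel genes, 6 were higher in liver and 55 in retina, and of 31 calcium and sodium channel genes, 1 was higher in liver and 28 in retina. Kcnv2, a subunit gene of the photoreceptor potassium channel, averaged 0.00489 ± 0.0120 in liver and 257 ± 36.5 in retina. Of 42 genes of GABA, glycine and glutamate receptors, 0 were higher in liver and 41 in retina. Among 57 protocadherin genes the counts were 2 in liver and 53 in retina.

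Of 11 neuronal splicing genes that passed, 10 were higher in retina (median log2 ratio -4.98), such as Celf4 at 0.195 ± 0.119 in liver and 116 ± 15.7 in retina. Ptbp2, the neuronal form of the polypyrimidine tract protein, had 8.61 ± 1.42 in liver and 117 ± 10.6 in retina, and its counterpart Ptbp1 had 105 ± 10.02 in liver and 44.5 ± 4.15 in retina. Rest, which silences neuronal genes outside the nervous system, had 17.7 ± 1.17 in liver and 8.18 ± 0.882 in retina. Esrp2 and A1cf, epithelial RNA-binding proteins, averaged 41.4 ± 4.96 and 45.4 ± 4.48 in liver; Esrp2 had 0.0778 ± 0.0555 in retina and A1cf was listed at 0 there. Of 340 zinc finger genes named Zfp, 11 were higher in liver and 265 in retina, and with scaling by the median ratio 13 in liver and 173 in retina.

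Several enzyme and carrier families were led by different members in the tissues. For glucose entry, Slc2a2, the low-affinity carrier of liver, made up 93.8% of the summed level of 3 carrier genes in liver and 0.0474% in retina, while Slc2a1 made up 4.36% in liver and 84.7% in retina. Slc2a2 had 255 to 327 (median 314) in liver and 0.0304 to 0.190 (median 0.0999) in retina. Slc2a1 had 11.7 to 17.6 (median 13.8) in liver and 137 to 217 (median 186) in retina, a log2 ratio of -3.64 ± 0.14. Gys2 held 97.9% of glycogen synthase in liver and 1.02% in retina, and Mat1a 97.4% of methionine adenosyltransferase in liver and 0.0475% in retina. Gls2 held 91.3% of glutaminase in liver and 1.24% in retina, and Arg1 99.9% of arginase in liver and 8.10% in retina.

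Other families had the same leading member in both tissues. Pkm2, the pyruvate kinase entry that most growing and nervous tissues use, led with 73.0% in liver and 99.99% in retina. Pklr, the liver form, made up 27.0% in liver and 0.0132% in retina. Ldha held 99.3% of lactate dehydrogenase in liver and 90.8% in retina, at a shared level of 1729 ± 137 in liver and 1603 ± 123 in retina. Ckb, the brain creatine kinase, averaged 40.2 ± 3.96 in liver and 2299 ± 313 in retina.

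**Figure D3:**
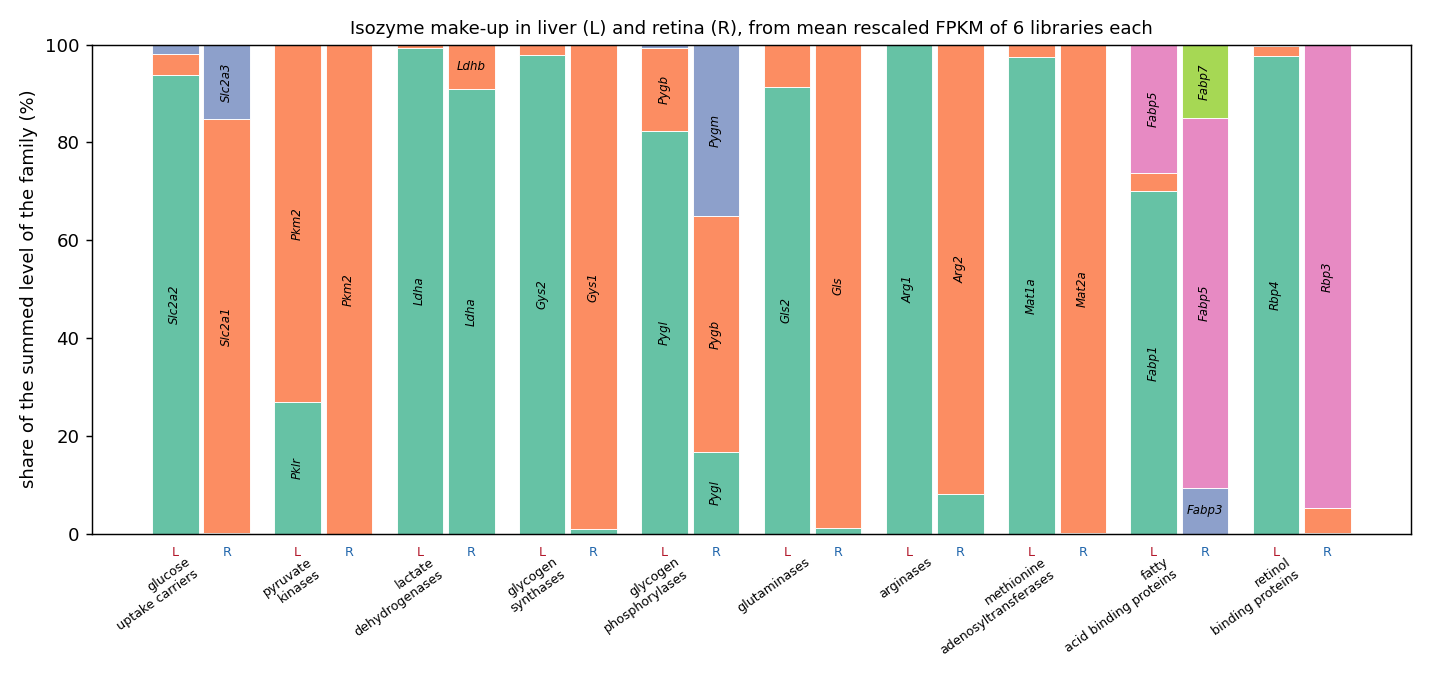
Share (%) of the summed mean level that each member holds within 10 families, with liver (L) left of retina (R) in each pair. The leading member differs between the tissues for glucose carriers, glycogen synthases and glutaminases, and is the same for pyruvate kinases and lactate dehydrogenases.

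Retinol leaves the liver on a plasma carrier and is turned in the eye into the chromophore of the visual pigments. Of 14 genes of this route, 5 were higher in liver and 7 in retina, beside 21.6% and 43.1% of all genes that passed. Rbp4, the plasma carrier, averaged 3342 ± 536 in liver and 0.677 ± 0.0946 in retina. Rbp3, which shuttles retinoids between photoreceptors and pigment epithelium, averaged 0.0764 ± 0.0219 in liver and 699 ± 175 in retina, and Rdh12, which reduces retinal in photoreceptors, 0.638 ± 0.220 and 296 ± 54.0. Lrat, which esterifies retinol for storage, had 17.6 to 22.4 in liver and 0.843 to 5.45 in retina. Stra6, which takes up retinol from its plasma carrier, averaged 0.00391 ± 0.00958 in liver and 4.94 ± 1.89 in retina. Of 10 genes of fatty acid elongation and desaturation, 6 were higher in liver and 3 in retina. Fads2 and Elovl2, of the route to long polyunsaturated fatty acids, averaged 905 ± 117 and 634 ± 50.3 in liver and 84.9 ± 5.37 and 86.6 ± 19.9 in retina, and Elovl4, which makes the longest chains of photoreceptor membranes, 0.0494 ± 0.0411 in liver and 428 ± 56.8 in retina.

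The drugs of the study act on the HIF pathway, and its alpha subunit genes differed between the PBS libraries. Prolyl hydroxylases, encoded by Egln1, Egln2 and Egln3, mark the alpha subunits Hif1a and Epas1 for destruction through Vhl, and Hif1an blocks their activity. Hif1a had 26.8 to 36.9 (median 31.8) in liver and 469 to 534 (median 499) in retina, a log2 ratio of -3.97 ± 0.08. Epas1, which encodes HIF-2 alpha, had 45.5 to 64.6 (median 48.6) in liver and 7.96 to 13.6 (median 9.69) in retina, a log2 ratio of 2.29 ± 0.13. The order of the alpha subunits was thus opposite in the tissues, with Epas1 above Hif1a in liver and Hif1a above Epas1 in retina, and their libraries did not overlap in either tissue. Egln3 was higher in liver, 14.8 ± 2.68 against 2.67 ± 0.586 in retina. Egln1 was higher in retina, 17.5 ± 1.51 in liver and 40.9 ± 2.72 in retina, but not with scaling by the median ratio. Egln2 was at a shared level, 52.4 ± 5.52 in liver and 43.8 ± 3.98 in retina. Hif1an had 14.3 ± 0.638 in liver and 28.6 ± 1.44 in retina, just under a 2-fold difference, with libraries that did not overlap. Vhl had 17.6 ± 1.79 in liver and 60.4 ± 2.15 in retina.

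Of 14 pathway genes that passed, 2 were higher in liver, 8 in retina and 4 in neither, and with scaling by the median ratio 3, 5 and 6. Of 19 target genes that passed, 2 were higher in liver, 8 in retina and 9 in neither, and with that scaling 3, 5 and 11. Over all genes that passed, 21.6% were higher in liver and 43.1% in retina, so the shares of the target list are near those of all genes and are no result about it. Vegfa, the vessel growth factor, had 35.4 ± 2.10 in liver and 42.9 ± 12.3 in retina, at a shared level. Ndrg1 averaged 18.6 ± 3.43 in liver and 518 ± 58.5 in retina, and Bhlhe40 62.7 ± 7.28 and 7.93 ± 2.79. Epo, the erythropoietin gene, was under the filter at 0.125 to 1.06 in liver and 0 to 0.692 in retina. Targets here have other regulators too, and their levels are not a reading of pathway activity.

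A shared level was called when the log2 ratio was under 0.5 in size and the mean at least 1 in both tissues. This held for 2553 genes (17.5%), which held 19.4% of the liver libraries and 20.5% of the retina libraries. Of the 77 ribosomal protein genes that passed, 75 were called in neither direction, with a median log2 ratio of -0.21, and 58 were at a shared level. Eef1a1, the elongation factor, had 4268 ± 209 in liver and 4070 ± 341 in retina. The other genes of highest level in this class were Rpl41, Ppia, Rps29, Tpt1p, Rplp1 and Tmsb4x, with log2 ratios between -0.43 and 0.47, and Rps29, Rplp1 and Rpl41 encode ribosomal proteins with many near-identical copies. With scaling by the median ratio, Tpt1p and Rplp1 were called higher in liver, with log2 ratios of 1.17 and 1.01. Atp5b of the ATP synthase had 1585 ± 116 in liver and 1774 ± 97.3 in retina. Of 79 respiratory chain and ATP synthase genes, 71 were called in neither and 8 in retina, such as Cox8a at 908 ± 45.0 in liver and 2255 ± 106 in retina. That call of Cox8a was lost with scaling by the median ratio, where its log2 ratio was -0.61 in place of -1.31. This scaling moved the median of the ribosomal genes to 0.49 and that of the respiratory genes to 0.36, so a level called shared is relative to the total. With that scaling 10 ribosomal genes were higher in liver and 0 in retina, and 7 respiratory genes were higher in liver and 2 in retina. Of the 2553 genes, 1033 were also at a shared level with that scaling.

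Of 38 proteasome subunit genes, 31 were called in neither direction, 5 in liver and 2 in retina, and with scaling by the median ratio 5 in liver and 0 in retina. The liver ones included Psmb8, Psmb9 and Psmb10, the 3 catalytic subunits that interferon puts in place of the standard ones. Psmb8 had 127 to 493 (median 297) in liver and 2.29 to 4.81 (median 3.07) in retina, a log2 ratio of 6.13 ± 0.34. Among the liver libraries, replicate 5 was highest at 493 and replicates 3 and 6 were lowest at 144 and 127. B2m, the light chain gene of MHC class I, which is often used as a normaliser, had 1910 to 4134 in liver and 56.6 to 104 in retina. Of 14 commonly used normaliser genes, 8 were called in neither direction, among them Eef1a1, Gapdh and Ppia, 4 were higher in liver and 2 in retina, and with scaling by the median ratio 7 in liver and 1 in retina. Tbp had 9.79 ± 0.918 in liver and 33.7 ± 3.50 in retina.

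The labels give no age, and the stage is described from genes known to vary with it. Of 12 fetal liver genes, 9 passed the filter, 7 were higher in liver, Scd2 was higher in retina and Cd24a in neither. Afp, made by fetal and newborn hepatocytes and repressed after birth, had 11293 to 16734 (median 15404) in liver and 0.0662 to 0.147 (median 0.125) in retina. H19 and Igf2, imprinted genes that fall after birth, averaged 8037 ± 933 and 2273 ± 216 in liver, and 18.8 ± 7.44 and 26.9 ± 4.77 in retina. Gpc3 averaged 277 ± 16.9 in liver and 16.6 ± 4.27 in retina, and Igf2bp3, an RNA-binding protein of the fetus, 34.3 ± 2.24 and 3.98 ± 0.193. Lin28b, Igf2bp1 and Hmga2, which mark earlier fetal stages, were under the filter, with Lin28b at 0.259 ± 0.0709 in liver. Dlk1 was low, 3.48 ± 0.566 in liver and 0.121 ± 0.0260 in retina. Cyp3a16, a form of the young liver, averaged 348 ± 51.2, and the form Cyp3a11 1099 ± 142, a ratio of Cyp3a11 over Cyp3a16 of 3.19 ± 0.43 (SD, n = 6 libraries); both were listed at 0 in retina, and reads between these close copies may be divided wrongly.

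Genes of the adult liver were divided between some at a clear level and others near 0. Of 13 listed, 7 passed the filter, 6 of them higher in liver and Cyp7b1 in retina, and 6 were under it. The 13 summed to 424 to 618 in liver and 6.79 to 10.1 in retina, and most of the liver sum came from cytochrome P450 genes: Cyp3a25, Cyp1a2 and Cyp2c50 averaged 156 ± 28.3, 142 ± 19.98 and 87.2 ± 16.7 in liver and were listed at 0 in retina. Cyp2d9, a further cytochrome P450 gene of the list, was also called higher in liver and was listed at 0 in retina. Cyp2c29 averaged 8.58 ± 3.61 in liver and 0.00796 ± 0.0195 in retina. Other members were low. Mup3 and Mup20, major urinary protein genes of adult liver, had 0.483 to 1.86 and 0.179 to 0.289 in liver. Mup1, of the same family, was listed at 0 in every library of both tissues, and such a zero can stand for a failed estimate. Slco1a1, a male-biased carrier of the adult, had 0.284 to 0.535, and Hsd3b5, an enzyme of adult male liver, 1.28 to 3.81. All 12 genes of fat oxidation, ketone synthesis and glucose output, which the suckling liver uses, were higher in liver (median log2 ratio 3.45). Pck1, of glucose output, averaged 807 ± 117 in liver and 0.0143 ± 0.0157 in retina. Of 9 genes of lipogenesis, which rise with a carbohydrate diet, 2 were higher in liver, 4 in retina and 3 in neither, shares near the 21.6% and 43.1% of all genes, and 2, 2 and 5 with scaling by the median ratio. Thrsp, a lipogenic regulator, had 0.730 ± 0.251 in liver and 18.4 ± 4.12 in retina, and Scd1, a fatty acid desaturase gene, 9.74 ± 2.04 in liver and 3.93 ± 1.29 in retina.

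Hepatocytes near the portal vein and near the central vein divide tasks between them, which is called zonation. All 7 periportal genes were higher in liver (median log2 ratio 6.60). Of 9 pericentral genes, 4 were higher in liver, Slc1a2 was higher in retina and 4 were in neither: Glul, Oat, Lgr5 and Axin2. Over all genes that passed, 21.6% were higher in liver and 43.1% in retina. These counts set liver against retina and do not compare the zones of the liver. The liver ones included Cyp1a2, at 142 ± 19.98 in liver and listed at 0 in retina, and Rhbg, an ammonia channel, at 39.2 ± 8.80 in liver and 0.240 ± 0.0649 in retina. Bulk levels do not show where in the lobule a transcript lay. In bulk samples, fewer cells of a type and less RNA per cell cannot be told apart, here and in the results on other cell types.

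Of 17 genes of retinal progenitors, 12 passed the filter. Ccnd1 was higher in liver, 10 were higher in retina and Hes1 was in neither. Rax, which Mueller glia keep, was listed at 0 in liver and had 180 to 294 (median 236) in retina. The other 5 were under the filter. Of these, Atoh7, needed for ganglion cell birth, had 0 to 1.15 (median 0.188) in retina and Fgf15 0.898 to 2.77 (median 1.31). Opn1sw, the short-wave cone opsin, had 207 to 262 (median 218) in retina, and Opn1mw, the middle-wave opsin, which comes on later, 36.3 to 90.1 (median 53.6). The ratio of Opn1mw over Opn1sw was 0.268 ± 0.106 (SD, n = 6 libraries), from 0.138 in replicate 5 to 0.435 in replicate 2. Opn1mw was highest in replicates 2 and 3, the libraries with the highest Gnat1.

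Of 23 cell division genes, 22 were higher in liver (median log2 ratio 3.28) and Pcna was at a shared level, or higher in liver with scaling by the median ratio. Mki67, which is made in cycling cells, had 40.8 to 67.7 (median 55.5) in liver and 0.599 to 1.30 (median 1.01) in retina. Top2a averaged 67.3 ± 16.2 in liver and 2.42 ± 0.699 in retina. Hepatocytes and blood precursors both divide in a young liver, and bulk levels do not part them. Of 56 replication-dependent histone genes that passed, 36 were higher in liver and 6 in retina. The retina ones included Hist1h4c, at 663 ± 117 in liver and 2793 ± 394 in retina, and Hist3h2ba, at 48.4 ± 7.94 and 303 ± 39.4. Hmgn2, which encodes a nucleosome-binding protein, was also high in retina, at 267 ± 26.5 in liver and 2679 ± 544 in retina, and histone genes have close copies. Thyroid hormone genes, which time both tissues, had Dio1 at 81.9 ± 11.4 in liver and 0.0946 ± 0.0387 in retina, and Dio2 at 0.0982 ± 0.0496 and 13.3 ± 5.29.

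**Figure D4:**
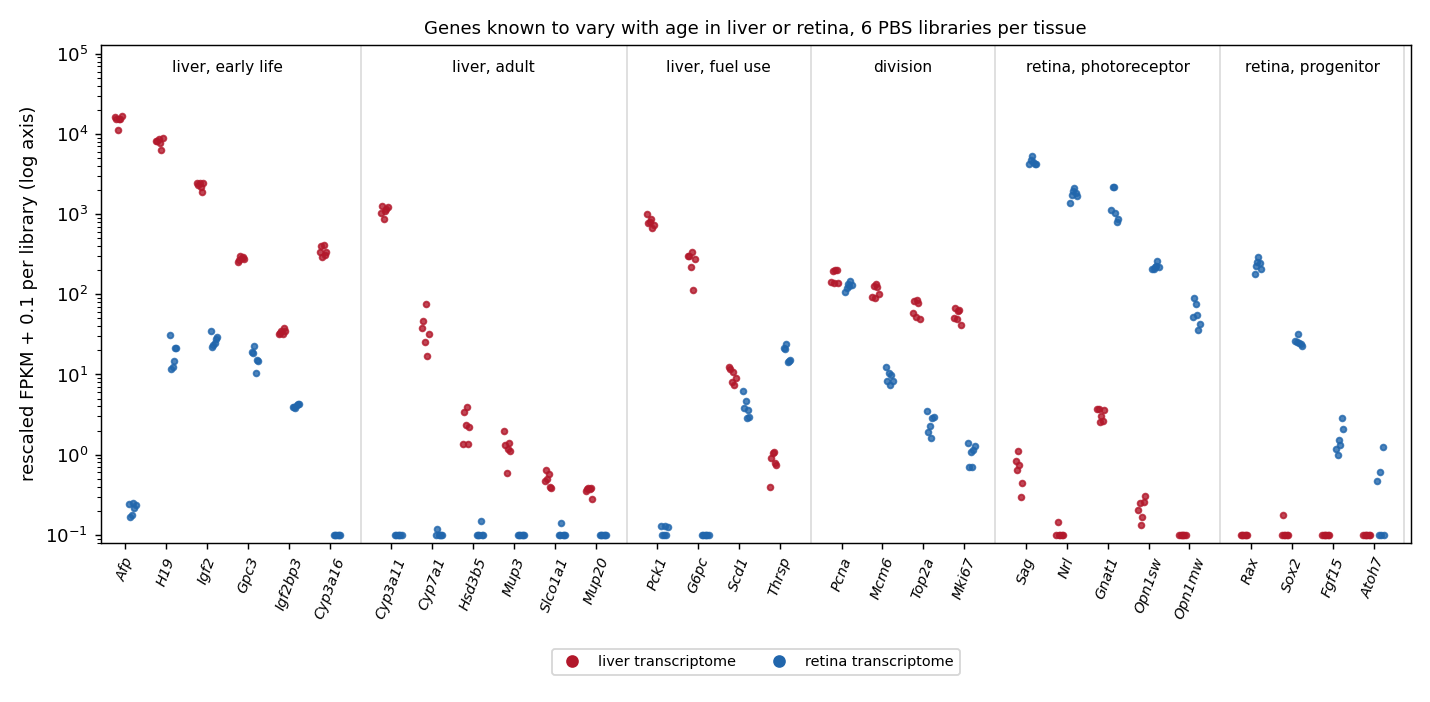
Level in each library, as rescaled FPKM plus 0.1 on a log axis, of genes known to vary with age, with liver (red) left of retina (blue) for each gene. Afp, H19 and Igf2 lie above every other gene drawn in liver while Mup3, Slco1a1 and Mup20 lie below 2, and Fgf15 and Atoh7 lie below 3 in all retina libraries.

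Blood cell genes were also higher in liver. Of 17 red cell genes in the tables, 13 passed and all 13 were higher in liver (median log2 ratio 4.34), with 4692 to 9278 rescaled FPKM summed in liver and 52.5 to 105 in retina. The list includes Alas2, the haem synthesis enzyme of red cell precursors, at 190 ± 43.2 in liver and 2.42 ± 0.662 in retina, and the erythroid factor Klf1, at 15.5 ± 2.35 and 0.532 ± 0.189. Beta-s, a beta globin entry, averaged 11055 ± 3086 in liver and 158 ± 32.1 in retina, and globin genes are near-identical copies. All 8 neutrophil genes were higher in liver, 1824 to 4088 summed in liver and 2.08 to 4.67 in retina, among them the granule genes of precursors Elane, Mpo and Prtn3. The red cell and neutrophil levels are given beside the division genes, and their part in those was not tested.

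Of 10 macrophage genes, 8 were higher in liver, and Cx3cr1, a microglial receptor, in retina, at 2.73 ± 1.44 in liver and 10.1 ± 1.88 in retina. Other microglial genes of the list did not go with Cx3cr1: Tmem119 was among the 8 higher in liver, and P2ry12 was at a shared level. The 5 Kupffer cell genes were all restricted to liver, at 713 to 1584 summed in liver and 0.0273 to 0.279 in retina. Marco, a scavenger receptor, had 774 in liver replicate 1 and 221 to 372 in the other 5 liver libraries. Of 8 endothelial genes, 7 were higher in liver, and Kdr, the main VEGF receptor, was at a shared level, 45.5 ± 3.01 in liver and 61.2 ± 5.80 in retina. Of 6 genes of the barrier endothelium of brain and retina, Abcb1a was higher in liver and Cldn5 was in neither. The 4 higher in retina were Slco1c1, Mfsd2a, Slc7a5 and Slc2a1, or 3 with scaling by the median ratio, beside 43.1% of all genes that passed. Slc2a1 is also counted above among the glucose carriers, and bulk levels do not show which cells held these transcripts. Of 9 stellate cell and pericyte genes that passed, 8 were higher in liver. Dcn averaged 203 ± 11.8 in liver; in retina it had 24.3 in replicate 5 and 0.425 to 1.93 in the other 5.

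The retina libraries also held transcripts of tissues around the retina. All 16 lens genes were higher in retina (median log2 ratio -11.42). Cryaa, the alpha-A crystallin gene, was listed at 0 in liver and had 1862 to 16273 (median 6610) in retina. Cryba1 had at most 0.241 in liver and 1090 to 12889 (median 5459) in retina. Crygb, Crygc, Cryge and Crybb2 were listed at 0 in liver and averaged 2930 to 3167 in retina, and Crybb3 averaged 1.79 ± 0.496 in liver and 2907 ± 2292 in retina. Crystallin genes have close copies, so single members are uncertain. Of 7 pigment epithelium genes that passed, 6 were higher in retina, and the list summed to 3.40 to 4.77 in liver and 78.3 to 254 in retina. Retina replicate 3 had the lowest lens sum and the highest pigment epithelium sum. Muscle genes summed to at most 2.33 in liver and 13.5 in retina. Without lens genes in the totals, 3085 genes were higher in liver and 6540 in retina.

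**Figure D5:**
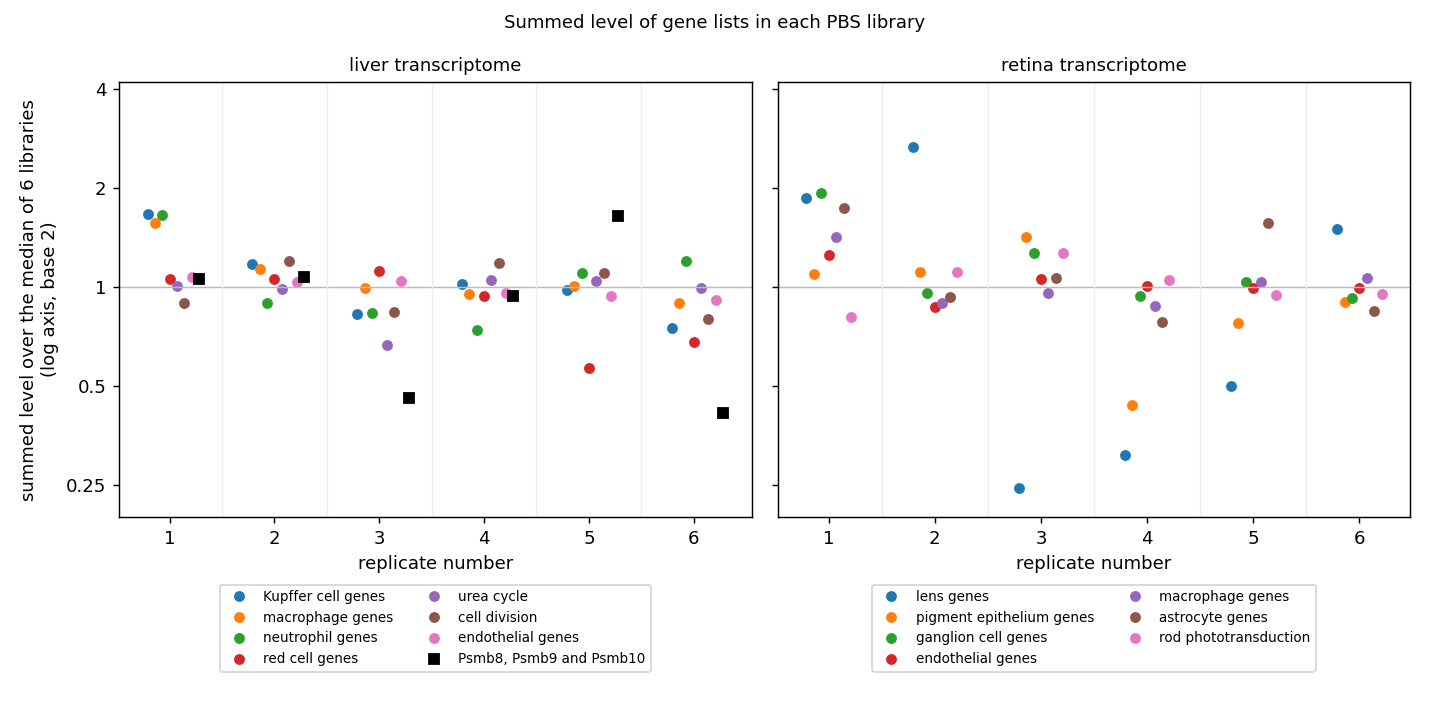
Summed level of gene lists in each library divided by the median of the 6 libraries of that tissue, on a log axis, with liver on the left and retina on the right. Of the lists drawn, lens genes spread most, 10.9-fold in retina, and Psmb8, Psmb9 and Psmb10 are lowest in liver replicates 3 and 6.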

How the data were processed

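RNA-seq libraries of total RNA were analysed from the 12 PBS samples. Per the labels, RNA was isolated with RNeasy columns and sequenced after TruSeq stranded preparation with Ribo-Zero Gold. The submitters' processing notes name bcl2fastq 1.8.3, TopHat2, Cuffdiff 2.2.1 and the mouse build mm9. The authors deposited 1 table of FPKM values per tissue label, with 22558 genes each. A row of totals was dropped, 25 rows whose names had become dates could not be joined, and 22533 genes were joined by symbol. Each library was rescaled to a total of 1000000. The filter, calls and pseudocount are given where first used. Values were computed with Python 3.11.15, pandas 2.3.3 and numpy 2.4.6, and drawn with matplotlib 3.10.9. The log2 ratios and the calls of higher genes were tested on simulated levels, and the joining and rescaling were not. Depth is unknown because the deposited FPKM carry no counts, so no interval or detection limit is given. No test was run across the tables, because each holds a single tissue.

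Samples were grouped by the PBS treatment label and the tissue label. The members and gene lists were chosen with earlier results of these data known, and the families named by symbol after seeing the values. Named genes were, per tissue, the 12 of highest mean among those called, the 10 of highest mean at a shared level, 2 to 4 leading members and the exceptions of each list, isozymes and HIF pathway genes; further list members of known role were named after their values were seen. Some genes that the rule picks are not reported here. Promoters came from RefSeq, GRCm38.p6, while the tables use mm9, and were matched by symbol only. Alternatives were other pseudocounts, filters, scalings and fold limits, and leaving out each library.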

Additional observations from a re-analysis of the deposited data

Results flagged for a closer look

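In 372 sets of 6 libraries (the named genes and list sums in each tissue), the highest or lowest library was examined for its gap to the nearest other, divided by the range of all 6. In 26 sets, 6.99%, this share was above Dixon's 95% critical value for 6 samples, and chance gives about 1 in 20 for a single set. The sets are not independent, since list sums hold genes that are also counted singly, and some genes were named after their values were seen, so the count is not read against that share.

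Retina replicate 1 was the library in 9 of the 26 sets, and was the highest in each. Among neuronal genes the share was 0.732 for Slc17a6, 0.722 for Pou4f1 and 0.662 for the ganglion cell sum. Among vessel genes it was 0.723 for Cldn5, 0.688 for Rgs5 and 0.631 for Pecam1. It was 0.646 for the macrophage sum, which was 176.8 in that library and 109.1 to 133 in the other 5. It was 0.685 for Tpt1p and 0.672 for Rplp1.

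Liver replicate 3 was the library in 6 sets. It was lowest for the urea cycle sum (0.840), Afp (0.708), Ass1 (0.656) and Atp5b (0.641), and highest for Epas1 (0.69997, 64.6 against 45.5 to 51.2) and Apoa1 (0.640).

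Liver replicate 1 was highest for Marco (0.726) and the macrophage sum (0.644, 1492 against 851 to 1079) and lowest for A1cf (0.722, 36.8 against 45.8 to 49.3). Liver replicate 6 was highest for Fgb (0.759, 6475 against 4186 to 4737). Liver replicate 5 was highest for C3 (0.641) and Gbp2 (0.635) and lowest for the thyroid hormone gene sum (0.630).

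In other retina libraries, Dcn had the widest gap, 0.937, in replicate 5, which was also highest for Opn1sw (0.726). Replicate 3 was highest for the sum of the hepatocyte transcription factors (0.728, 26.8 against 20.002 to 21.9), and replicate 4 for Cox8a (0.676).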

How the results depend on the processing

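No gene called in one tissue was called in the other under any alternative. The count of genes higher in retina was 6305, and was 4050 with scaling by the median ratio and 3423 with a 4-fold limit. The count restricted to retina was 584, and was 470 with scaling by the median ratio, where 569 in place of 478 were restricted to liver. It was 1182 with a pseudocount of 0.1 and 386 with a pseudocount of 1, which follows from the place of the pseudocount in the ratio of genes near 0. Of the calls, 33.3% were toward liver, against 50.9% with scaling by the median ratio and 26.7% with FPKM as deposited. The median log2 ratio of all genes that passed was -0.07 with scaling by the median ratio and -0.99 as deposited. It was -0.62 with the 50 genes of highest mean in each tissue left out of the totals of both tissues. Leaving out each library in turn gave 3104 to 3201 genes higher in liver, 6180 to 6393 higher in retina, 471 to 489 restricted to liver, 573 to 592 restricted to retina and 2513 to 2591 at a shared level. Totals and shares without lens genes, and totals without Rpph1 and Rmrp, were chosen after seeing the data. Without Rpph1 and Rmrp there were 3033 genes higher in liver and 6899 in retina. No paired analysis was possible because the replicate numbers do not pair the libraries: on Xist against Y-linked genes, same-numbered libraries fell on opposite sides in 4 of 6 cases. Unknown depth limits what can be said of genes listed at 0.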

Other observations

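Genes that interferons induce were higher in liver, a pattern chosen after its values were seen. All 13 genes named Ifi or Ifit that passed were higher in liver. Gbp2, a guanylate-binding protein gene, had 227, 185, 32.9, 137, 565 and 40.01 rescaled FPKM in liver replicates 1 to 6. Replicate 5 was highest and replicates 3 and 6 lowest, as for Psmb8.

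Hox genes, which set position along the body axis, were low: of 40, 1 passed the filter, Hoxb2, at 2.05 in liver and listed at 0 in retina. The 40 summed to 8.28 to 10.2 rescaled FPKM in the liver libraries and 0 to 0.142 in the retina libraries.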
